A study of Mus musculus with 27 samples.

Results

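Malat1, Neat1, Meg3, Miat and Kcnq1ot1 are long noncoding RNAs (lncRNAs) that stay in the nucleus after transcription. They were described here across the optic stalk (OS), the tube of neural tissue between eye cup and brain, of mouse embryos at embryonic day 14. The 5 RNAs, of 55487 genes in the table, were selected on a measured value, in part the level of Malat1 in the control libraries, as a readout of nuclear RNA in OS tissue against the axon region. Regional differences within controls are therefore given as descriptions with no test. The comparisons of mutants with controls use the same control libraries, and since the 5 RNAs were chosen with results of all 6 groups known, the tests on mutants are not independent of the choice either. All 5 RNAs were among the 16330 genes that passed the filter on low counts (more than 10 counts in at least 3 libraries).

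Laser capture took the dorsal OS, the ventral OS and the region of retinal ganglion cell (RGC) axons from 4 control and 5 mutant embryos, which gave 27 libraries in 6 groups. The mutants, Smarcc1-DCT-cKO, carried Baf155 loxP/loxP, Dct-Cre and the Z/EG reporter. Baf155 is Smarcc1, a core part of SWI/SNF complexes, which move nucleosomes, and Cre was driven by the pigment gene Dct. Controls were littermates without Dct-Cre, and their other alleles were not analysed here. RGC cell bodies lie in the retina, so the axon region holds RGC axons together with the nuclei of the cells around them. Per the labels, batch A held 1 control and 3 mutant embryos and batch B held 3 control and 2 mutant embryos.

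A lncRNA acts as RNA and codes for no protein. Malat1 gathers in nuclear speckles, the stores of splicing factors. Neat1 is the scaffold of paraspeckles, nuclear bodies that hold RNA-binding proteins such as Nono and Sfpq. Meg3 is transcribed from the maternal copy of the imprinted Dlk1-Dio3 region, and Kcnq1ot1 from the paternal copy of the Kcnq1 region, where it silences genes on the same chromosome. Miat, also called Gomafu, collects in nuclear domains of its own in neurons and carries a repeated motif that binds the splicing factor SF1. Axons hold no nucleus.

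The genes lie at chr19:5795690-5802672 (Malat1), chr19:5824708-5845478 (Neat1), chr12:109541001-109571726 (Meg3), chr5:112213228-112229395 (Miat) and chr7:143203458-143296549 (Kcnq1ot1) in mm10, with Meg3 on the plus strand and the others on the minus strand. The annotated exons, all noncoding, cover 6983 bases of Malat1, 20771 of Neat1, 18089 of Meg3 in 8 exons, 9293 of Miat in 6 exons and 93092 of Kcnq1ot1, whose model is 1 exon antisense to Kcnq1. Exonic bases shared with another gene made up 7.72% of Malat1, 1.85% of Neat1, 8.29% of Meg3, 30.4% of Miat and 1.20% of Kcnq1ot1. The strand setting of the counting is not given in the sources used here, so reads from such bases could belong to either gene.

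Smart-Seq2, the method of these libraries, starts reverse transcription with oligo(dT), which anneals to stretches of A. The sequences around the longest exonic run of A are shown for Malat1 and Kcnq1ot1 as examples of RNAs with a run of at least 10, which Miat and Neat1 lack. Each is 100 bases of mm10 on the transcribed strand, read by GENCODE M21 exons, with the run in capitals. The Malat1 stretch, chr19:5795944-5796043 on the minus strand, holds the A tract of its known 3′ end, followed by the tRNA-like RNA that is cut off there. The Kcnq1ot1 stretch is chr7:143226916-143227015 on the minus strand.
Malat1: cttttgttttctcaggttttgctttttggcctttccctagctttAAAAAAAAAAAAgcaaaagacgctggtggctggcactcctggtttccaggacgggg
Kcnq1ot1: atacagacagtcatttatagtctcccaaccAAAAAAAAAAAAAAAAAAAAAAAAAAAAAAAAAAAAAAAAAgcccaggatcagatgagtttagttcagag
The runs were 12 bases in Malat1 and 41 in Kcnq1ot1. The longest run was 7 bases in Neat1 and 4 in Miat. Of the 1382 lncRNA models among the genes tested, 21.3% held a run of at least 10.

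Miat is shown by its repeat, because it was the RNA with the clearest regional difference in mutants. The 200 bases at chr5:112217319-112217518, minus strand, are the stretch of its exons with the most copies of ACTAAC, searched on the transcribed strand only and printed in capitals.
Miat: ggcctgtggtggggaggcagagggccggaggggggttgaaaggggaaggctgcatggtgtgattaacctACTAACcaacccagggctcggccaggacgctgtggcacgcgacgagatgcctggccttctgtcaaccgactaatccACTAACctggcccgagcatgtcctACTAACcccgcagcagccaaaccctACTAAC
The stretch held 4 copies and all Miat exons together held 11. The motif occurred in 28.4% of the 1382 lncRNA models, and 3 models (0.217%), Miat and Kcnq1ot1 included, had 11 or more copies. Kcnq1ot1 had 20 copies in its far longer model, which was 0.215 copies per kb against 1.18 per kb in Miat. Neat1 had 4 copies, Meg3 had 1 and Malat1 had 0. These letters are a description of the annotated exons and not evidence of binding.

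Values are CPM, the reads of a gene scaled to a common library total (1e6 counts). The total count per library was 10.9 to 34.0 M, and mitochondrial genes took a mean of 10.9% of counts in control axon libraries and 10.2% in mutant ones, against 5.11% to 5.81% in the 4 stalk groups. The targeted gene Smarcc1 had a mean of 144 CPM in dorsal controls (range 75.9 to 289) and 54.5 in dorsal mutants (2.26 to 107), 130 and 33.5 in the ventral OS, and 124 and 18.3 in the axon region. The ventral ranges were 75.7 to 198 in controls and 14.7 to 64.4 in mutants, and the axon ranges 50.1 to 242 and 1.86 to 44.9. Neither pair overlapped, as for 0.706% and 1.04% of genes tested in that direction. Smarcc1 was lower in each region's mutants, but no comparison passed the edgeR quasi-likelihood test (adjusted p from 0.880 to 0.999). The unadjusted p of that test was 0.121 in the dorsal OS, 0.000781 in the ventral OS and 0.0671 in the axon region. The axon marker Nefm stood at 957 CPM in control and 1290 in mutant axon libraries and between 34.3 and 126 in the stalk groups. Of the embryos, 4 of 4 controls and 3 of 5 mutants had counts of Y-linked genes, and the other 2 mutants had none and expressed Xist. Sex was not balanced between the genotypes, and its part in the results was not tested.

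**Figure D1:**
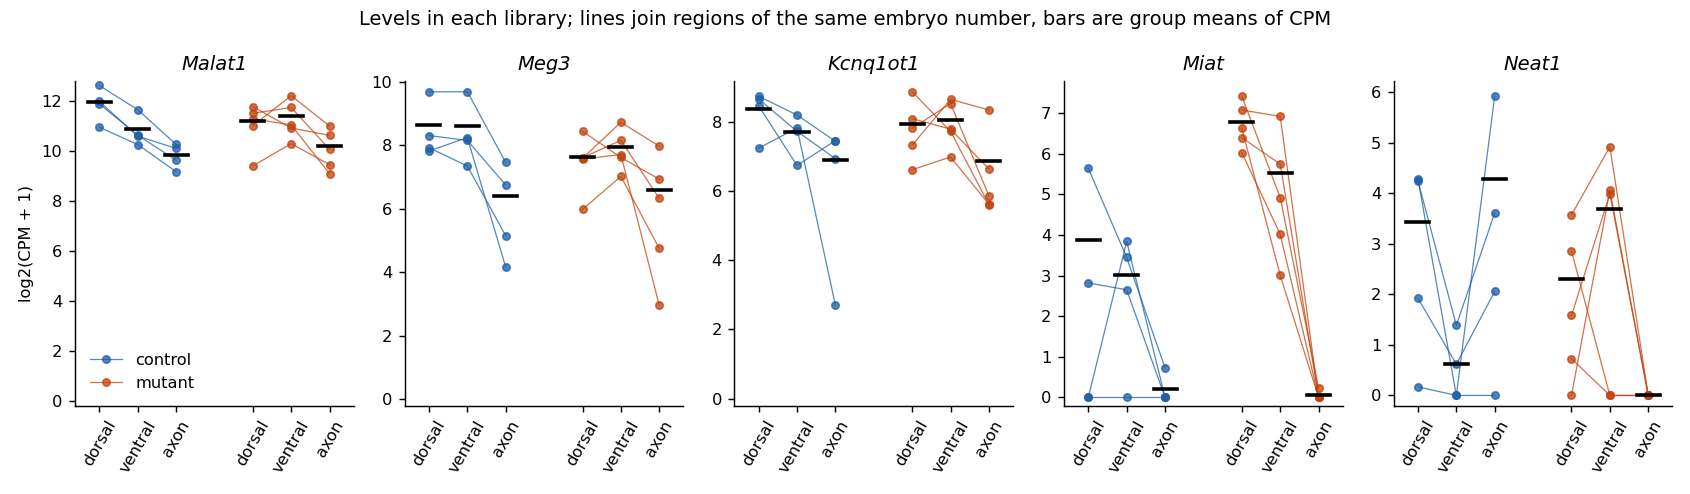
Level of each lncRNA, as log2(CPM + 1), in the 27 libraries, with dorsal, ventral and axon libraries on the x axis for 4 control (blue) and 5 mutant (orange) embryos. Thin lines join the regions of the same embryo number and black bars are group means of CPM. Malat1, Meg3 and Kcnq1ot1 have their lowest group means in the axon region, Miat is close to 0 in all 9 axon libraries, and Neat1 is listed at 0 in all 5 mutant axon libraries.

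Malat1 was the most abundant of the 5 RNAs and ranked 19th among all genes by mean CPM. Per kb of exon, its mean in dorsal controls was 577 CPM per kb, against 22.1 for Meg3, 3.57 for Kcnq1ot1, 1.48 for Miat and 0.474 for Neat1. In mutant dorsal libraries the corresponding levels were 334, 10.8, 2.61, 11.8 and 0.190 CPM per kb, so Miat stood above Meg3 there only by an amount smaller than the spread between the libraries. Neat1 was the weakest signal, with 0 counts in 11 of the 27 libraries and a median of 0.656 CPM. Miat had 0 counts in 10 of the 27.

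In controls, Malat1 was 1976, 6305, 4044 and 3780 CPM in the dorsal OS of embryos 1 to 4. The ventral values were 1222, 3214, 1545 and 1585 CPM. The axon values were 575, 1228, 1098 and 791 CPM. Every dorsal library thus lay above every axon library, and within each of the 4 embryos the order was dorsal, then ventral, then axon. The dorsal over axon ratio within an embryo had a median of 2.07 on the log2 scale and ranged from 1.78 to 2.36. The ratio of the group means, 4026 ± 1775 against 923 ± 295 CPM (SD, n = 4), was 4.36-fold. The ventral mean was 1891 ± 897 CPM (SD, n = 4). Since Malat1 in these libraries was what the choice rested on, nothing is read from the order.

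Meg3 showed the same split between stalk and axon region in controls. Its dorsal values were 224, 818, 241 and 315 CPM and its ventral values 301, 820, 161 and 282. In the axon region they were 16.8, 174, 34.4 and 106 CPM. All 4 dorsal libraries exceeded all 4 axon libraries, and in 4 of 4 embryos both stalk pieces exceeded the axon piece, with a median dorsal over axon log2 ratio of 2.50. Dorsal and ventral Meg3 did not separate, with a dorsal value above the ventral one in 2 of 4 embryos. Malat1 and Meg3 were the 2 of the 5 RNAs without overlap between control dorsal and axon libraries, a pattern that 2.91% of the 15899 genes with counts there also had.

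Kcnq1ot1 in controls was 150, 425, 351 and 402 CPM in the dorsal OS, 224, 292, 106 and 210 in the ventral OS, and 5.51, 172, 174 and 121 in the axon region. The dorsal value exceeded the axon value in 4 of 4 embryos, and the groups overlapped through the dorsal library of embryo 1. Miat in control dorsal libraries was 0, 49.0, 0 and 6.06 CPM, and in ventral ones 13.3, 9.92, 0 and 5.28. Of the control axon libraries, only that of embryo 2 had Miat reads, at 0.655 CPM. Neat1 ran the other way in part, at 0.125, 2.79, 18.5 and 18.0 CPM in the dorsal, 0, 0.534, 0 and 1.62 in the ventral and 0, 3.16, 59.7 and 11.2 in the axon libraries.

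In bulk libraries of captured tissue, fewer nuclei in a piece and less RNA per nucleus cannot be told apart. The axon region also differed in its mix of RNAs. The summed level of 14 RGC and neuron markers was a mean of 5367 CPM in control axon libraries (range 3937 to 6783) against 957 in control dorsal ones (346 to 2175), and 6261 (5493 to 8325) against 928 (658 to 1294) in mutants. Of the 13 markers tested, 8 were lower and 5 higher in dorsal than in axon libraries, in controls and in mutants alike. In mutants the edgeR test called Map1b, a microtubule protein gene, lower and Elavl4, a neuronal RNA-binding protein gene, higher. All annotated lncRNAs took 1.69% ± 0.408 of counts in control dorsal libraries and 0.971% ± 0.0919 in control axon libraries (SD, n = 4), and 1.34% ± 0.252 and 0.945% ± 0.169 in mutants (SD, n = 5). The 5 RNAs made up 27.2% of those lncRNA counts in control dorsal libraries, 18.1% in ventral and 11.6% in axon ones. In mutants the shares were 20.6%, 21.7% and 13.99%. Leaving mitochondrial genes out of the total moved the dorsal over axon ratio of no RNA by more than its spread between embryos. The part of the neuron RNA in the regional differences was not tested.

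The question for the mutants was how the 5 RNAs were split between regions there. The regions were compared by edgeR's quasi-likelihood F-test across all genes, with Benjamini-Hochberg adjustment and a gene was called where the adjusted p was under 0.05 and the log2 fold change was past 0.58 in either direction. All 5 RNAs had positive fold changes for dorsal against axon and for ventral against axon. Neat1 was at 0 in the 5 mutant axon libraries and Miat at 0 in 4 of them with 3 counts in the other, so the sign of these 2 was given by their reads in the stalk alone. Of the 5, 1, Miat, was called, in dorsal against axon. The medians over the 5 were 0.92 and 1.20 on the log2 scale, against 0.33 and 0.37 over all genes tested. Over the 1237 and 1242 lncRNAs tested in the same pairs the medians were higher, 3.58 and 3.70. A positive fitted fold change was thus not particular to the 5. For lncRNAs with few or no reads in axon libraries the fitted size depends on the counts added by the fit, and such lncRNAs were not counted. As a share of all counts, lncRNAs took a mean of 1.34% in dorsal, 1.44% in ventral and 0.945% in axon mutants. The medians are therefore not compared in size. Of 15780 genes tested, 0.545% were called in dorsal against axon, and of 15804, 0.443% in ventral against axon. At an unadjusted p under 0.05, 2 of the 5 RNAs passed in dorsal against axon and 3 in ventral against axon, where 23.5% and 21.8% of all genes did.

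Miat was 83.2, 134, 64.3, 170 and 97.8 CPM in the dorsal OS of mutant embryos 1 to 5. Its ventral values were 52.7, 120, 15.2, 29.3 and 7.04 CPM, and in the axon region it was 0 in 4 libraries and 0.175 CPM, 3 counts, in that of embryo 4. Every stalk library lay above every axon library, a pattern that 3.12% of genes had for dorsal and 2.59% for ventral against axon. Miat rose in dorsal against axon with a log2 fold change of 11.25 ± 1.74 (SE, n = 5 and 5), which depends on the counts added by the fit, and an edgeR adjusted p of 0.00382. The pooled counts, 8011 against 3, gave a ratio of 3566 with an exact 95% interval of 1220 to 17297 for counting error only. With the embryo as a replicate block the adjusted p was 0.0641 and the call was lost, while the all-gene count moved from 86 to 42.

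Summed levels of cell type markers are set beside these values for the same mutant regions. The summed level of 8 pigment genes was 7342 CPM in dorsal (range 2989 to 11909), 1841 in ventral (498 to 3775) and 711 in axon libraries (3.91 to 1237), and Tyr, the enzyme that starts melanin synthesis, was at 0 in the 5 axon libraries. That of 11 mesenchyme genes was 185 (55.7 to 403), 107 (53.6 to 199) and 1183 (629 to 2305) CPM in the same order. That of 8 erythroid genes was 3347 (176 to 7270), 625 (2.27 to 1227) and 11032 (609 to 33049) CPM. Of these lists edgeR called 2 pigment genes, Tyr and Dct, higher in dorsal than in axon libraries, and no mesenchyme or erythroid gene, of which 5 and 2 were lower at an unadjusted p under 0.05. That of 12 stalk and astrocyte progenitor genes was 1443 (1103 to 1880), 4139 (2794 to 4858) and 4418 (3533 to 5024) CPM. Of these, 9 were lower in dorsal than in axon libraries and 4 were called, the filament genes Nes and Vim, the lipid carrier gene Fabp7 and the glutamate transporter gene Slc1a3. Their part in the regional differences was not tested.

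For ventral against axon, Miat had a log2 fold change of 9.97 ± 2.45 (SE, n = 5 and 5) and an edgeR adjusted p of 0.144. It was not called, although DESeq2 and limma voom both called it. The pooled counts of 4121 and 3 gave a ratio of 1283 (exact 95% interval 439 to 6223, counting error only). Within embryos dorsal Miat exceeded ventral Miat in 5 of 5 mutants, by a median of 2.01 on the log2 scale of CPM + 1. The dorsal against ventral test gave 1.31 ± 0.65 (SE, n = 5 and 5) with an edgeR adjusted p of 0.453. Across this comparison 0 of 16168 genes (0%) were called by edgeR, of which 2007 had an unadjusted p under 0.05 and none were among the 5 RNAs. DESeq2 and limma voom also called 0 of the 5. So did the exact permutation test, but it called no gene in any comparison it was run on.

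**Figure D2:**
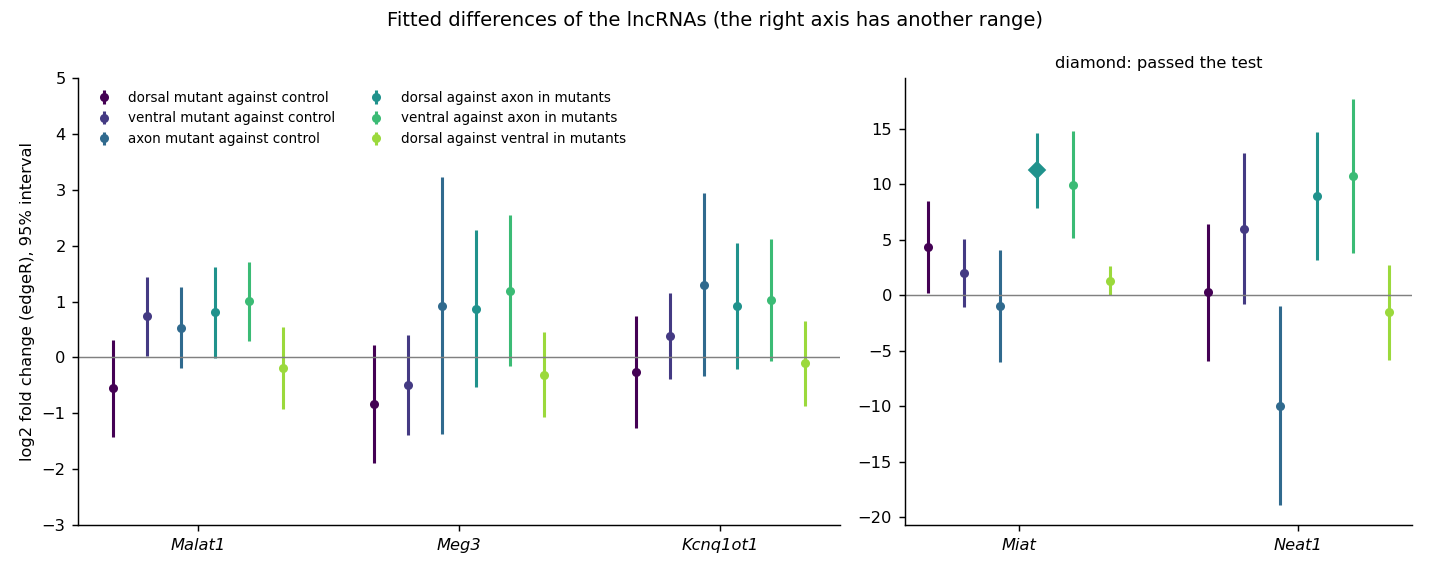
Log2 fold changes of the 5 lncRNAs in the 6 comparisons by edgeR (y axis), with 95% intervals from the approximate SE, for Malat1, Meg3 and Kcnq1ot1 (left) and for Miat and Neat1 (right, on a wider scale). The diamond, Miat in dorsal against axon of mutants at 11.25, is the 1 value that passed the test.

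Malat1 in mutants was 3499, 675, 2908, 2055 and 2507 CPM in the dorsal OS and 1934, 1252, 3420, 4744 and 2102 in the ventral OS. In the axon region it was 1577, 698, 1070, 2038 and 542 CPM. The ventral value exceeded the axon value in 5 of 5 embryos and the dorsal one did so in 4 of 5, the exception being embryo 2, whose dorsal library had the lowest Malat1 of all dorsal libraries. The groups overlapped in both pairs. Malat1 differed by 1.01 ± 0.36 (log2, SE, n = 5 and 5) in ventral against axon with an edgeR unadjusted p of 0.0145 and an adjusted p of 0.214. In dorsal against axon it was 0.81 ± 0.42 with an adjusted p of 0.295, and in dorsal against ventral -0.19 ± 0.37 with an adjusted p of 1.00.

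Meg3 in mutants was 346, 61.9, 194, 191 and 188 CPM in dorsal, 195, 128, 283, 421 and 208 in ventral and 121, 25.8, 78.9, 249 and 6.74 in axon libraries. Kcnq1ot1 was 466, 96.8, 223, 159 and 271 CPM in dorsal, 210, 125, 367, 399 and 219 in ventral and 47.7, 48.0, 57.1, 323 and 98.4 in axon libraries. For both RNAs the ventral value was above the axon value in 5 of 5 embryos and the dorsal value in 4 of 5. In ventral against axon, the overlap of Meg3 and of Kcnq1ot1 came from the axon library of embryo 4 alone, which also held the highest Malat1 of the mutant axon libraries. The ventral against axon log2 fold changes were 1.20 ± 0.69 for Meg3 and 1.03 ± 0.55 for Kcnq1ot1 (SE, n = 5 and 5), with edgeR adjusted p of 0.382 and 0.322.

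Neat1 was listed at 0 counts in all 5 mutant axon libraries, the group with the fewest genes detected. In the dorsal OS it was 6.24, 0.656, 0, 10.9 and 1.99 CPM and in the ventral OS 0, 0, 15.7, 29.3 and 14.9. Against the floor of 3 counts per library, the group means were at least 24.4-fold higher in dorsal and at least 73.7-fold higher in ventral than in axon libraries, and without the library of embryo 4 at least 13.7-fold and at least 47.1-fold. These bounds cover counting error only, and not the spread between libraries. The edgeR adjusted p was 0.182 and 0.214, and libraries at 0 in each stalk group kept the groups from separating. DESeq2 called Neat1 in both pairs.

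Of the axon libraries, that of mutant embryo 5 had the lowest Malat1 of the 9, at 542 CPM, and the lowest Meg3, at 6.74. Xist, the nuclear lncRNA that coats the inactive X chromosome, was 402 CPM in the dorsal and 295 in the ventral library of this embryo and 3.95 in its axon library. In embryo 1, the other mutant with Xist, the values were 707, 417 and 415 CPM.

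Mutants were set against controls in each region, on 9 libraries with batch as a term, to ask whether loss of Smarcc1 went with other levels of these RNAs. None of the 5 was called by edgeR in any region, and none reached an unadjusted p under 0.05. The background was 0.0124% of 16145 genes called in the dorsal OS, 0% of 16139 in the ventral OS and 0% of 14977 in the axon region, and 864, 515 and 531 of these genes had an unadjusted p under 0.05. DESeq2 called 0, 0 and 1 of the 5 RNAs in dorsal, ventral and axon comparisons, the 1 being Neat1, and limma voom called none. The exact permutation test called none either, but it has too few splits of 9 libraries for any gene here to pass.

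Miat had the largest dorsal difference of the 5 between genotypes. The mutant values of 64.3 to 170 CPM all lay above the control values of 0 to 49.0, which 1.31% of the genes tested also showed in that direction. The means were 110.0 ± 42.4 (SD, n = 5) and 13.8 ± 23.7 CPM (SD, n = 4). The log2 fold change was 4.35 ± 2.11 (SE) with an edgeR unadjusted p of 0.0615 and an adjusted p of 0.918. Leaving out 1 library at a time gave 2.93 (without control embryo 1) to 7.22 (without mutant embryo 5), and 6.96 without control embryo 2, which held most control reads. Within batch A (1 control and 3 mutants) it was 13.59, against a control at 0, and within batch B (3 controls and 2 mutants) it was 2.89. In the ventral OS the means were 44.9 ± 45.5 (SD, n = 5) and 7.13 ± 5.79 (SD, n = 4) and the libraries overlapped (edgeR adjusted p 0.999).

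Cell type markers of the dorsal OS are set beside Miat. The summed level of 8 pigment genes was 2769 CPM in dorsal controls (range 43.5 to 5003) and 7342 in dorsal mutants (2989 to 11909). That of 11 mesenchyme genes was 4523 (1147 to 11458) and 185 (55.7 to 403), and that of 12 stalk and astrocyte progenitor genes 3038 (2737 to 3607) and 1443 (1103 to 1880). No gene of the 3 lists was called by edgeR, and at an unadjusted p under 0.05 there were 2 pigment genes higher and 7 mesenchyme and 4 progenitor genes lower in mutants. The pigment sums overlapped between the genotypes. Their part in the Miat values was not tested.

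Malat1 in the dorsal OS was 2329 ± 1066 CPM in mutants (SD, n = 5) and 4026 ± 1775 in controls (SD, n = 4), with overlapping libraries and a log2 fold change of -0.55 ± 0.44 (SE, edgeR adjusted p 1). The value was 0.23 within batch A and -1.03 within batch B. In the ventral OS it was 2690 ± 1391 (SD, n = 5) against 1891 ± 897 (SD, n = 4), which was 0.74 ± 0.36 in log2 units (SE, edgeR adjusted p 0.999), and 0.86 and 0.68 within batches A and B. In the axon region it was 1185 ± 621 (SD, n = 5) against 923 ± 295 (SD, n = 4), or 0.53 ± 0.37 (SE, edgeR adjusted p 0.883), and 0.90 and 0.30 within the batches. Meg3 had log2 fold changes of -0.84 ± 0.54, -0.49 ± 0.46 and 0.93 ± 1.18 in the dorsal, ventral and axon comparisons, and Kcnq1ot1 of -0.26 ± 0.51, 0.38 ± 0.40 and 1.30 ± 0.83 (SE, n = 5 and 4). The axon means of Kcnq1ot1 were nearly alike, 115 ± 118 CPM in mutants (SD, n = 5) and 118 ± 79.0 in controls (SD, n = 4). Its axon log2 fold change was 3.16 within batch A, 0.42 within batch B and 0.39 to 2.08 with 1 library left out. In the dorsal OS it was 0.78 and -0.85 within batches A and B, and in the ventral OS 0.0740 and 0.61. Meg3 was -0.19 and -1.25 within batches A and B in the dorsal OS, -0.56 and -0.43 in the ventral OS and 2.10 and 0.29 in the axon region.

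Neat1 differed most between genotypes in the axon region, where 3 of 4 control libraries held reads, at up to 59.7 CPM, and the 5 mutant libraries were listed at 0. The mutant axon libraries also had fewer genes detected, a mean of 10146 against 12143 in control ones. The control mean of Neat1, 18.5 ± 27.9 CPM (SD, n = 4), was 114 times the floor of 3 counts per mutant library. The fold over mutants was thus at least 114 for counting error only, which leaves out the spread between libraries. That mean rested on the library of embryo 3, without which it was 4.80 CPM and the fold at least 29.5. The control library of embryo 1 was also at 0, so the groups overlapped, and the edgeR adjusted p was 0.880 (unadjusted 0.0565). In the dorsal OS the means were 3.96 CPM in mutants and 9.84 in controls, with a log2 fold change of 0.25 ± 3.14 in the fit with batch (SE, n = 5 and 4). In the ventral OS they were 12.0 and 0.537 CPM, a difference of 6.0 ± 3.48 on the log2 scale (SE, n = 5 and 4), and neither comparison passed (edgeR adjusted p 1 and 0.999).

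Whether the genotype difference varied between regions was fitted as an interaction over all 27 libraries. It holds the control regional difference that the choice of Malat1 used, so the Malat1 values are a description. None of the 5 RNAs was called by edgeR. Of 16330 genes, 0.00612% were called for dorsal against ventral, 0.0245% for dorsal against axon and 0.00612% for ventral against axon. Malat1 had an interaction of -1.21 ± 0.57 (log2, SE) for dorsal against ventral, with mutant levels below controls in the dorsal and above them in the ventral OS. Neat1 had an unadjusted p of 0.000808 for ventral against axon (edgeR adjusted p 0.298), where the control mean was higher in axon and mutant libraries were at 0 there. An unadjusted p under 0.05 was found for 7.39%, 11.7% and 10.4% of all genes in the 3 interactions. DESeq2 called Neat1 in the interactions of dorsal and of ventral with axon, and limma voom called none.

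**Figure D3:**
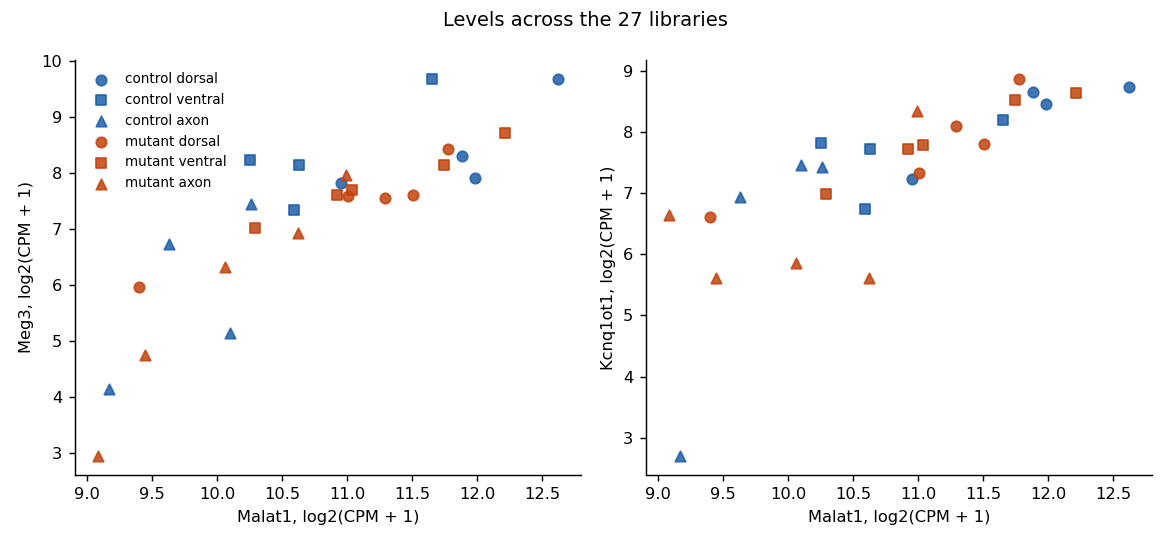
Meg3 (left) and Kcnq1ot1 (right) against Malat1 in the 27 libraries, each as log2(CPM + 1), with colour for genotype and symbol for region. The points rise together, with Pearson r of 0.850 and 0.770. Most axon libraries (triangles) lie towards the lower end, but that of mutant embryo 4 lies among the stalk libraries and the dorsal library of mutant embryo 2 lies low.

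Malat1, Meg3 and Kcnq1ot1 varied together across the 27 libraries, which share regions, embryos and depth. The Pearson r of log2(CPM + 1) was 0.850 for Malat1 and Meg3 (Spearman rho 0.849), 0.770 for Malat1 and Kcnq1ot1 (0.865) and 0.737 for Meg3 and Kcnq1ot1 (0.879). After the group means were taken out, r was 0.809, 0.625 and 0.595. For Malat1, Neat1 gave 0.410 and Miat 0.406, and the latter was 0.0948 within groups. Malat1 had r of -0.434 with the mitochondrial share of counts over all libraries and 0.330 within groups. With the number of genes detected, Miat had r of 0.598 over all libraries and 0.569 within groups.

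By Pearson r over the 27 libraries, among genes of at least 10 CPM, the genes most like Malat1 were Meg3 (0.850), Man2b1 (0.798), a lysosomal mannosidase, and Ogt (0.786), the enzyme that adds O-GlcNAc to proteins. Those most like Meg3 were the receptor gene Notch2 (0.856), Malat1 and Man2b1 (0.849). Kcnq1ot1 was most like Tia1 (0.876), an RNA-binding protein gene, Ogt (0.855) and Smchd1 (0.848), a chromatin protein gene known from X inactivation. Spearman rho with Kcnq1ot1 was lower, at 0.700, 0.827 and 0.568 in the same order. With Meg3, rho was 0.797 for Notch2 and 0.690 for Man2b1. Miat was most like Onecut2 (0.833), a neural transcription factor, the collagen gene Col8a1 (0.806) and Gadd45g (0.793). After the group means were taken out, r with Miat was 0.590 for Onecut2, 0.425 for Col8a1 and 0.238 for Gadd45g. Neat1 had weaker partners, Troap (0.668), Mtpn (0.666) and Fam174b (0.641).

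**Figure D4:**
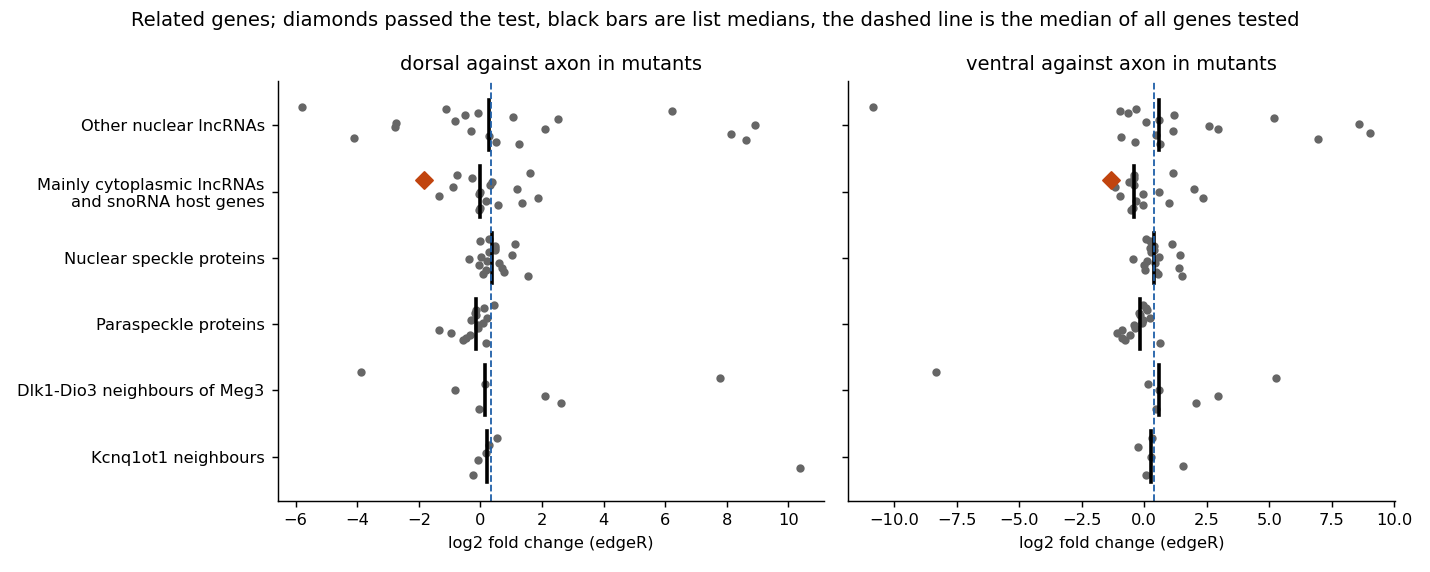
Log2 fold changes by edgeR in mutants, dorsal against axon (left) and ventral against axon (right), of genes related to the 5 lncRNAs, 1 point per gene, with list medians as black bars and the median of all genes tested as a dashed line. The 1 gene that passed the test, H19 at -1.83 and -1.33, is the diamond in both panels.

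Related genes were set beside the 5 RNAs in the mutant regional comparisons. Of 19 other nuclear lncRNAs, such as Rian, Xist and Tug1, 0 were called by edgeR in any of the 9 comparisons. In dorsal against axon 10 of 19 were higher and 4 had an unadjusted p under 0.05, with a median log2 fold change of 0.26 against 0.33 over all genes, and the median in ventral against axon was 0.61 against 0.37. Rian, which lies next to Meg3, was 81.8 ± 59.9 CPM in dorsal, 151 ± 91.2 in ventral and 16.7 ± 20.8 in axon mutants (SD, n = 5), with edgeR adjusted p of 0.385 and 0.214 against axon. Tug1 was 104 ± 37.1, 56.5 ± 27.8 and 64.3 ± 65.8 CPM (SD, n = 5).

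Of 17 lncRNAs and snoRNA host genes known as mainly cytoplasmic, 1 was called. H19, an imprinted growth-linked RNA, fell by 1.83 ± 0.25 in dorsal against axon (edgeR adjusted p 0.00105) and by 1.33 ± 0.26 in ventral against axon (edgeR adjusted p 0.0284) on the log2 scale (SE, n = 5 and 5). Its means were 164 ± 41.9, 232 ± 72.3 and 514 ± 85.1 CPM in dorsal, ventral and axon mutants (SD, n = 5), and no stalk library reached an axon one. The list medians were 0.00 and -0.40, or 0.21 and -0.19 with total-count scaling. The growth-arrest RNA Gas5 was 473 ± 46.3, 439 ± 90.4 and 512 ± 75.7 CPM (SD, n = 5). Of the 1237 lncRNAs of all kinds tested in dorsal against axon, Miat and H19 were the 2 called, in opposite directions, and of the 1242 in ventral against axon only H19 was.

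The proteins of the nuclear bodies gave no call. Of 18 nuclear speckle protein genes, 15 were higher in dorsal and 16 in ventral than in axon mutants, with medians of 0.38 and 0.38 against 0.33 and 0.37 over all genes. Son, a speckle scaffold, was 784 ± 177, 791 ± 161 and 574 ± 131 CPM in dorsal, ventral and axon mutants, and the splicing factor Srsf7 was 986 ± 131, 1375 ± 188 and 824 ± 280 (SD, n = 5). Of 16 paraspeckle protein genes, 5 and 4 were higher, with medians of -0.15 and -0.18 under TMM scaling. With libraries scaled to their total counts these medians were 0.05 and 0.03, 9 and 8 genes were higher, and the median of all genes was 0.52 and 0.56. Nono was 476 ± 57.0, 376 ± 82.7 and 439 ± 126 CPM and Hnrnpk 1357 ± 189, 1360 ± 128 and 1027 ± 211 CPM (SD, n = 5).

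The imprinted neighbours gave 0 calls by edgeR. Of 7 genes around Meg3, 4 were higher in dorsal and 6 in ventral than in axon mutants. Dlk1, a paternally expressed Notch-like ligand, was 42.0 ± 20.1, 43.3 ± 28.6 and 33.9 ± 18.8 CPM (SD, n = 5). Of 8 genes around Kcnq1ot1, 6 passed the low-count filter, and Kcnq1 and Ascl2 did not. Cdkn1c, a cell cycle inhibitor that Kcnq1ot1 is known to silence in cis, was 99.4 ± 30.8, 70.1 ± 43.5 and 72.2 ± 34.5 CPM in dorsal, ventral and axon mutants (SD, n = 5). The tetraspanin Cd81 was 613 ± 197, 526 ± 70.9 and 376 ± 101 CPM (SD, n = 5), with edgeR adjusted p of 0.264 and 0.586 against axon.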

How the data were processed

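The authors captured the tissue by Geo-seq and made Smart-Seq2 libraries without molecular identifiers. Reads were aligned to mm10 by STAR, and the authors deposited raw HTSeq counts per gene, run through Seq2Science with its default settings. Tool versions, annotation release and strand setting are not given in the sources used here. The submitters' processing notes also name Salmon, whose values were not used here.

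Groups, batches and replicate numbers came from the labels. Of 55487 identifiers, 55227 matched GENCODE M21, which gave symbols and positions. Snhg4 of the gene lists was not matched. CPM is the count divided by the library total (10.9 to 34.0 M). At 0 counts the floor was 3 counts per library. Folds against this floor and the intervals of pooled counts cover counting error only, and not RNA lost in capture or amplification. No 2 of the 351 library pairs were identical.

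Genes over 10 counts in 3 or more libraries were tested with edgeR 4.0.16 (quasi-likelihood F-test, two-sided, TMM, robust) in R 4.3.3. The 9 libraries of a region were fitted with batch, mutant regions on 10 libraries without covariates, and interactions on 27 libraries with batch. SEs were derived from the F statistic and are approximate. P-values measure the spread between these samples. DESeq2 1.42.0 and limma 3.58.1 served as alternatives, and the fits were tested on simulated data.

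Within a genotype, same-numbered libraries were taken to be 3 regions of the same embryo, as the study describes its sampling. Sex-linked genes of same-numbered libraries matched. All controls had Y-linked counts, so any pairing of control libraries would match. In mutants these genes only set embryos 1 and 5 apart from embryos 2, 3 and 4. Between same-numbered libraries, the r of deviations from group means had a median of 0.0578 in controls and 0.0152 in mutants. Each embryo number was checked in each pair of regions, against the 4 control or 5 mutant libraries of the other region. The own number correlated best in 8 of 12 such checks in controls and 9 of 15 in mutants.

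The 5 RNAs and the gene lists were chosen with earlier results of these data known. Named are the 5 RNAs, Smarcc1, list genes that were called or among the 3 of highest mean CPM, and the 3 genes most correlated with each RNA, if at least 10 CPM, properly named and sharing no exonic base. Sequences were read from GRCm38.p6, and 1 stretch is not reported here.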

Additional observations from a re-analysis of the deposited data

Results flagged for a closer look

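In each group, the highest and lowest CPM of each lncRNA were checked for a gap to the next library that was large against the group's range (Dixon's test at 95%), over 29 sets of 4 or 5 libraries. For normally distributed values chance marks about 1 in 20 sets, a rate that need not hold for CPM with many values at 0. There were 5 such libraries. In dorsal controls, embryo 2 stood apart for Meg3, at 818 CPM with the next at 315, and for Miat, at 49.0 CPM with the next at 6.06. In axon libraries, control embryo 2 (0.655 CPM) and mutant embryo 4 (0.175 CPM) were the only ones with Miat reads in their groups. Where all other libraries are at 0 any read is marked, so these 2 marks were fixed by the zeros. Mutant embryo 4 also stood apart for Kcnq1ot1, at 323 CPM with the next at 98.4. The cause was not tested.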

How the results depend on the processing

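Over 45 fold changes of the 5 lncRNAs and 718 alternative values, 679 kept direction and call, 26 changed sign and none of those 26 was called. Scaling by RLE or total counts and leaving out mitochondrial genes or any 1 library changed no call of the 5. Total-count scaling moved the median of all genes from 0.33 to 0.52 in dorsal against axon of mutants and from 0.37 to 0.56 in ventral against axon. Miat in dorsal against axon of mutants had an edgeR adjusted p of 0.00333 to 0.0306 without any 1 library. With the embryo as a replicate block it was 0.0641, and the count of called RNAs went from 1 to 0. The exact permutation test gave Miat an adjusted p of 0.190 and called 0 of all genes there. It has too few splits of these libraries for any gene here to pass the adjustment, so it cannot decide on Miat. DESeq2 and limma voom called 2 there, adding Neat1. In ventral against axon DESeq2 called 2 (Miat, adjusted p 1.81e-10, and Neat1) and limma voom 1 (Miat). DESeq2 also called 1, Neat1, in the axon genotype comparison and in both interactions with axon. Without the filter on low counts edgeR called 1, Malat1, in the ventral genotype comparison (0.77, adjusted p 0.00245), in the interaction of dorsal with ventral and in that of dorsal with axon, and the cause was not tested.

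Signs changed for weak and for abundant RNAs, none of them called. For dorsal mutants against controls, Neat1 (0.25) was -0.11 by limma voom, -0.91 by permutation, -0.61 by the newer edgeR method, -1.30 without batch, -1.01 in batch B and -1.32 with a replicate block over shared numbers. In batch A Malat1 (-0.55) was 0.23 and Kcnq1ot1 (-0.26) 0.78. For axon mutants against controls, limma voom gave -0.0973 for Malat1 (0.53) and -0.58 for Meg3 (0.93), permutation -0.0918 for Meg3, and the fit without batch -0.0361 for Kcnq1ot1 (1.30). The Meg3 interaction of ventral with axon (-0.97) was 0.38 by limma voom. Leaving out 1 library each gave -1.0 to 1.89 for Neat1 and -0.84 to 0.15 for Kcnq1ot1 in the dorsal, -0.79 to 0.0104 for Meg3 in the ventral, and -2.81 to 2.77 for Miat and -0.88 to 1.66 for Meg3 in the axon genotype comparison. In dorsal against ventral of mutants it gave -0.39 to 0.0795 for Malat1 and -0.49 to 0.0927 for Kcnq1ot1. Batch A gave no axon value for Miat and Neat1.

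Counts over all genes moved with the test. DESeq2 called 532, 342 and 1233 genes in the dorsal, ventral and axon genotype comparisons, 1571, 1352 and 460 in dorsal against axon, ventral against axon and dorsal against ventral of mutants, and 591, 1485 and 1387 in the interactions. The limma voom counts were 41, 6, 45, 682, 537, 24, 11, 48 and 19 in the same order. Without the filter edgeR called 101, 8, 10, 94, 69, 23, 15, 69 and 56, and the newer edgeR method 40, 0, 0, 150, 96, 69, 2, 21 and 0. The permutation test called 0 everywhere it was run, where the libraries gave too few splits for any gene to pass the adjustment. The replicate block called 0, 0, 0, 42, 41, 6, 1, 2 and 0. Total counts gave 37 in ventral against axon. Within batch A or B the dorsal count was 0, and without batch 8. Between the genotypes the same number marks different embryos, with a median r of -0.0182. The block changed no other call of the 5 RNAs. Batch A alone and the newer edgeR method were chosen after seeing the data.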
